A study of Mus musculus with 14 samples.

Results

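The unfolded protein response and the integrated stress response were followed through 39 genes. They were chosen by name as endoplasmic reticulum (ER) chaperones, ER-associated degradation genes, stress sensors, and targets of the transcription factor ATF4. The choice was made with earlier results of these data known, so the shares of members that passed are descriptive only. All 39 were found among the 49315 genes of the count table, and 38 had enough reads to be tested among 15292 tested genes. The remaining gene, Derl3, which encodes a protein of the ER degradation channel, stayed between 0.0363 and 0.294 CPM (read counts scaled by library size) in every library. RNA came from the left ventricle of wild-type mice (WT) and of HCN4F mice, a knock-in line in which tyrosine was exchanged for phenylalanine in the C-linker of the pacemaker channel HCN4. The exchange is in the germline Hcn4 gene and is therefore not limited to one cell type. Male mice aged 10 to 12 weeks underwent transverse aortic constriction (TAC), which narrows the aorta and loads the left ventricle with pressure, or a Sham operation, and hearts were taken 5 weeks later. The groups were WT-Sham (n = 4), HCN4F-Sham (n = 4), HCN4F-TAC (n = 4) and WT-TAC (n = 2, replicates 2 and 3), each library being a biological replicate. Further WT-TAC samples of the study were left out here, and the genetic background of the mice is not given in the sources used here.

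Proteins that misfold in the ER are sensed by IRE1 (Ern1), PERK (Eif2ak3) and ATF6, and these sensors raise chaperones and degradation factors through the transcription factors XBP1 and cleaved ATF6. PERK belongs to a group of kinases that phosphorylate the translation factor eIF2α. This lowers protein synthesis at large while the ATF4 mRNA is translated more, and ATF4 then drives genes for amino acid uptake, amino acid and one-carbon metabolism, and stress signalling. Because much of the control of these sensors is by cleavage, splicing, phosphorylation and translation, the mRNA levels reported here measure the transcripts alone.

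Libraries held 22309914 to 35210939 counts, and no 2 libraries of a group were alike within sampling noise (chi-square between them 6.59 to 66 per gene). Markers of ventricular cardiomyocytes were all detected (10 of 10, summed level 70376 to 87211 CPM), and markers of adipocytes summed to at most 0.489 CPM. Hcn4 had 106 to 470 counts per library, which does not tell the genotype, since the exchange leaves the transcript in place. Of the 10 cardiomyocyte markers, 3 were higher and 4 lower after TAC in HCN4F hearts, where the median of their sum was 80222 CPM in Sham and 72910 CPM in TAC libraries, and 2 were lower after TAC in WT hearts (86258 and 85155 CPM). Markers of other cell types also moved with the operation. Of 8 fibroblast markers, 5 rose after TAC in HCN4F hearts, and their summed level was 998 to 1753 CPM in HCN4F-TAC against 792 to 1017 CPM in HCN4F-Sham. The 5 atrial markers were Sln, Myl4, Myl7, Bmp10 and Nppa. The study reported Nppa as a hypertrophy marker raised by TAC in both genotypes, so their sum does not measure atrial tissue alone. The 5 markers summed to 411.7 to 1863 CPM in HCN4F-TAC, with the highest value in replicate 2, against 70.4 to 136 CPM in HCN4F-Sham. In WT hearts the sums were 196.7 and 246.1 CPM in WT-TAC against 82.4 to 183 CPM in WT-Sham. Of these 5, 3 were tested and 1 passed, in HCN4F hearts. B and plasma cell markers, which belong to a cell type rich in ER, summed to 15.2 to 18.2 CPM in WT-Sham, 23.3 to 52.6 CPM in HCN4F-Sham, 19.6 and 42.5 CPM in WT-TAC and 27.6 to 68.4 CPM in HCN4F-TAC. Their part in the results given here was not tested, and in these bulk samples fewer cells of a type cannot be told apart from less RNA per cell.

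Some members carry known regulatory motifs in their promoter sequence, and others have no match. The windows, from RefSeq on build GRCm38.p6, run from 250 bases before to 50 bases after a transcription start and matched 35 of the 39 members, all but Manf, Hyou1, Atf6 and Slc7a5. A set of 3 motifs was searched on both strands: the ER stress response element (ERSE, CCAAT and CCACG with 9 free bases between them), its second form (ERSE-II, ATTGG and CCACG with 1 free base between them), and the C/EBP-ATF response element bound by ATF4 (CARE, TGATG and AA with 1 free base between them). ERSE and ERSE-II share the CCACG end, and no match of one overlapped a match of another in the sequences printed here. ERSE was found in 8 of the 35 members (22.9%) against 0.137% of all 27025 genes with a window. Those 8 were Hspa5, Hsp90b1, Calr, Canx, Pdia6, Creld2, Syvn1 and Derl3, most of them chaperones. ERSE-II was found in Herpud1 alone among the members and in 0.0444% of all genes. CARE was found in 6 of the 35 (17.1%), namely Herpud1, Trib3, Chac1, Nupr1, Asns and Pycr1, against 4.51% of all genes. The 250 bases before the start are printed for the chief ER chaperones, for the member with both kinds of motif, for 2 stress effectors with a CARE, and for Mthfd2, which has no match. Capitals mark the fixed letters of a match, which reads as its reverse complement where it lies on the other strand.
Hspa5, chr2:34771840-34772089, plus strand: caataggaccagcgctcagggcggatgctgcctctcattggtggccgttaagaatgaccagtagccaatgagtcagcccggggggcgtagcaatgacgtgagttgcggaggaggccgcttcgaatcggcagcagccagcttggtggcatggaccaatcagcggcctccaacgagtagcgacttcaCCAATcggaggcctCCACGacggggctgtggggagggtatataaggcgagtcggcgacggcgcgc
Hsp90b1, chr10:86705445-86705694, minus strand: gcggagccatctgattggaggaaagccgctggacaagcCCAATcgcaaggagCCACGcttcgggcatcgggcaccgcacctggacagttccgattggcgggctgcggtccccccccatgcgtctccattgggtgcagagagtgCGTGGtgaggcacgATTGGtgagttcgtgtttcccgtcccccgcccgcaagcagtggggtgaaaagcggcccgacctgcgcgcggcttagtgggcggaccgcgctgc
Herpud1, chr8:94386179-94386428, plus strand: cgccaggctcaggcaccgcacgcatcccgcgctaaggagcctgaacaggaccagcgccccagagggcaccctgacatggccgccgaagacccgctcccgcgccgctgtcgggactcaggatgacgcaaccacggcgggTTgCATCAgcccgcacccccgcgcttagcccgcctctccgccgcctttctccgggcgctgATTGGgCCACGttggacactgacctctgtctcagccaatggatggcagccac
Nupr1, chr7:126625471-126625720, minus strand: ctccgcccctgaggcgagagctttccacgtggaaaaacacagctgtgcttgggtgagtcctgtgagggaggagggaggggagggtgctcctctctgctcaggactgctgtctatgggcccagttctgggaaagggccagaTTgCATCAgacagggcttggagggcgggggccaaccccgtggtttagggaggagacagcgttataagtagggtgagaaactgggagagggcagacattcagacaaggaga
Chac1, chr2:119350992-119351241, plus strand: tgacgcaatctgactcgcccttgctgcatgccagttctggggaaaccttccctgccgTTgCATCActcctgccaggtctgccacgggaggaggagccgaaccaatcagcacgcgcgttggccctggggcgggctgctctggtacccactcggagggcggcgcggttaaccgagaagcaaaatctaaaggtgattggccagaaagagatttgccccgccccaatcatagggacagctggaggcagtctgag
Mthfd2, chr6:83317605-83317854, minus strand: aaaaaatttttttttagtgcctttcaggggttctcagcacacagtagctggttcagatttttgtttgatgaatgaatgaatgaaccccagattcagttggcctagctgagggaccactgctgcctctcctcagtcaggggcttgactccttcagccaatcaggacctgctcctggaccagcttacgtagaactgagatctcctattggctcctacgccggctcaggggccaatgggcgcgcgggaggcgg
The ERSE of Hspa5 began 65 bases before the start, and those of Hsp90b1 began 212 and 107 bases before it. Herpud1 had its CARE at 112 and its ERSE-II at 52 bases before the start. The CARE began 110 bases before the start in Nupr1 and 193 bases before it in Chac1. These matches describe letters, not bound sites.

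The members spanned a wide range of levels. Per kilobase of exon, Calr and Hspa5, which encode the chaperones calreticulin and BiP, had mean levels of 122.5 and 115.1 CPM, followed by Hsp90b1 (77.6), Ddit4 (75.2), Herpud1 (68.8) and P4hb (66.4). At the other end, among tested members, were the biosynthetic genes Pycr1 (0.342), Psat1 (0.518), Phgdh (0.630) and Asns (0.854). The sensors Ern1 and Eif2ak3 were low, at 1.67 and 1.57 CPM per kilobase, while the transcription factor genes Atf5 (37.5), Atf4 (27.8) and Xbp1 (17.8) were expressed at higher levels. Of the amino acid genes that changed after TAC, Mthfd2 (1.07), Slc7a5 (2.12) and Aldh18a1 (2.57) were low and Slc3a2 (10.8) was higher.

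The first question was which members responded to pressure overload. In HCN4F hearts, 8 of 38 members (21.1%) passed an adjusted p of 0.05 after TAC, against 13.6% of all tested genes (edgeR's quasi-likelihood test, p adjusted by Benjamini-Hochberg over all genes tested). Of these, 7 were higher (18.4%, against 7.2% of all genes) and 1 was lower (against 6.41%). In WT hearts, 1 of 38 (2.63%) passed, Atf6, against 4.54% of all genes. The numbers are not directly comparable, because the WT comparison rests on 2 TAC libraries, and they depended on the fit. With each genotype fitted alone, edgeR and DESeq2 each called 7 of 38 members in WT (against 13.6% and 15.2% of all genes) and 6 of 38 in HCN4F hearts (against 8.98% and 12.2%). Without a filter edgeR called 5 and 9 of 39 (against 2.92% and 6.79% of all genes), and without either WT-TAC library none passed in WT hearts. The call rule of the study's methods adds an absolute log2 fold change above 1 as a condition. With it, 2 members remained in HCN4F hearts, Nupr1 and Mthfd2, both higher (2.75% of all genes, in either direction), and none in WT hearts (0.706%). At an unadjusted p under 0.05, 13 members stood out in HCN4F hearts and 10 in WT hearts (28.3% and 22% of all genes). The median log2 fold change of the members was 0.11 in HCN4F and 0.08 in WT hearts, beside -0.01 and -0.02 for all tested genes. Without HCN4F-TAC replicate 2, the library richest in atrial and fibroblast markers, 6 members passed in HCN4F hearts, and without replicate 3, the lowest of its group in both, 9 passed (8.73% and 15.6% of all genes). The lowest number, 5, came without HCN4F-TAC replicate 1 or HCN4F-Sham replicate 3 (10.5% and 13.8% of all genes).

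**Figure D1:**
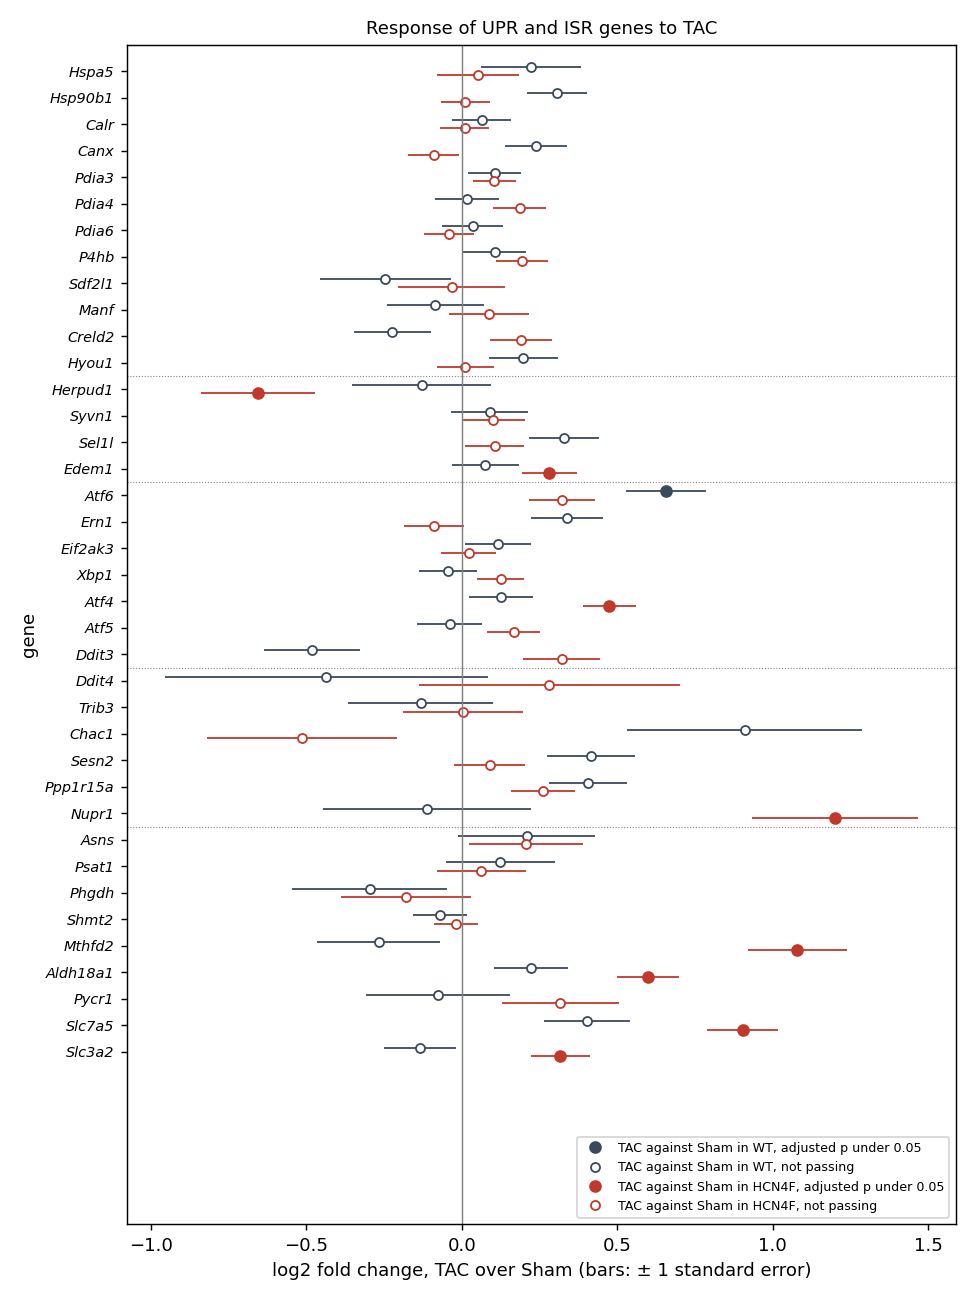
Log2 fold change of TAC over Sham (x axis) for the 38 tested members (y axis, ordered by role, with dotted lines between roles), in WT in dark grey and in HCN4F in red; bars are 1 standard error and filled points passed an adjusted p of 0.05. Of the 8 filled red points 4 lie in the lowest block, the amino acid, serine and one-carbon genes, whereas the uppermost block, the chaperones, has none.

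By role, 4 of 9 amino acid, serine and one-carbon genes passed in HCN4F hearts (44.4%, all higher), beside 13.6% of all tested genes. Of the ER-associated degradation genes, 2 of 4 passed, in opposite directions. Among the sensors and transcription factors it was 1 of 7 (14.3%) and among the stress effectors 1 of 6 (16.7%), shares near that of all genes, and among the chaperones 0 of 12. Differences between these groups were not tested. The plot of all members by library shows the same values one library at a time.

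**Figure D2:**
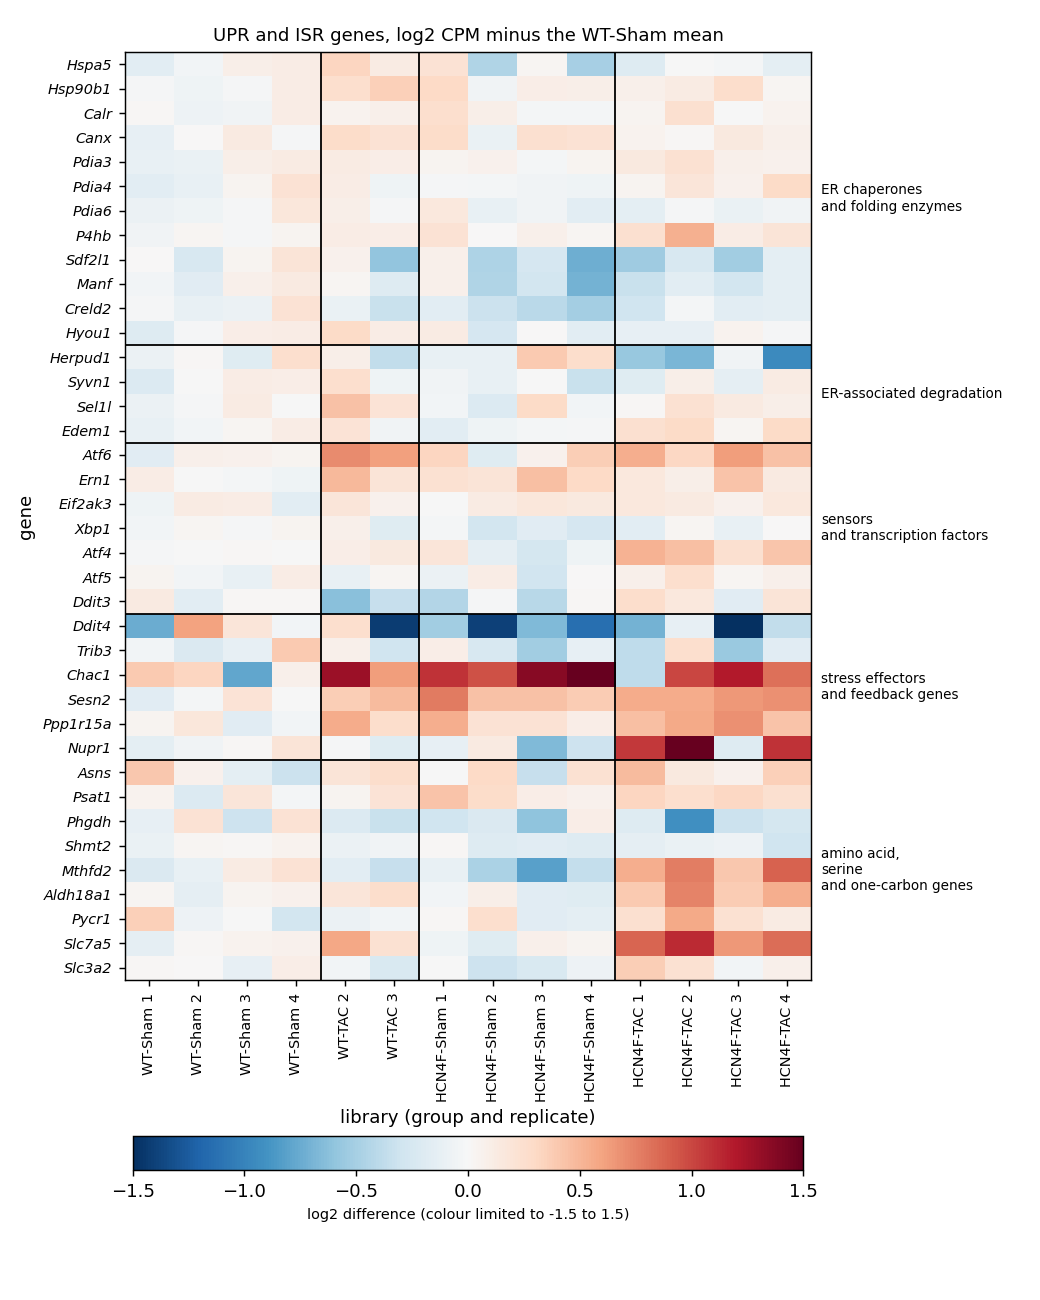
Log2 CPM of each tested member (rows, ordered by role) in each of the 14 libraries (columns) minus the mean of the 4 WT-Sham libraries, red for higher and blue for lower, with the strongest colours for values at or past the ends of the scale. Mthfd2, Aldh18a1 and Slc7a5 are red in all 4 HCN4F-TAC libraries, the chaperone rows stay pale in most libraries, and Chac1 is red in all HCN4F-Sham libraries.

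Uptake and biosynthesis of amino acids held the members with the smallest adjusted p. Slc7a5 (ENSMUSG00000040010, chr8:121881150-121907694) encodes the light chain of the large neutral amino acid transporter LAT1. Positions of genes are on build GRCm38, from GENCODE mouse release 21. The level of Slc7a5 was 5.58, 6.20, 6.38 and 6.44 CPM in WT-Sham replicates 1 to 4, 9.16 and 7.18 CPM in WT-TAC replicates 2 and 3, 5.87, 5.43, 6.47 and 6.31 CPM in HCN4F-Sham replicates 1 to 4, and 11.3, 13.3, 9.61 and 10.9 CPM in HCN4F-TAC replicates 1 to 4. All 4 HCN4F-TAC libraries lay above every other library, and both WT-TAC libraries lay above all Sham libraries. After TAC it rose in HCN4F hearts by 0.90 on the log2 scale (standard error 0.11, 1.87-fold, adjusted p = 0.000122), and the WT value was 0.40 (standard error 0.14, adjusted p = 0.101).

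Slc3a2 (ENSMUSG00000010095, chr19:8706882-8723369) encodes CD98, the heavy chain that carries LAT1 to the membrane. It had 38.6, 38.2, 35.02 and 41.0 CPM in WT-Sham, 37.2 and 32.6 CPM in WT-TAC, 38.0, 30.7, 32.5 and 36.3 CPM in HCN4F-Sham, and 49.4, 44.7, 37.0 and 40.3 CPM in HCN4F-TAC. HCN4F-TAC replicate 3 lay within the HCN4F-Sham range and the other HCN4F-TAC libraries above it. The rise in HCN4F hearts was 0.32 (standard error 0.09, 1.25-fold, adjusted p = 0.0325). It was no longer called without HCN4F-Sham replicate 2 (adjusted p = 0.0887) or 3 (0.0794), or without HCN4F-TAC replicate 1 (0.111) or 2 (0.0856), nor with the HCN4F groups fitted alone (0.0580 in DESeq2 and 0.0873 in edgeR).

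Mthfd2 (ENSMUSG00000005667, chr6:83305691-83325908) encodes a mitochondrial enzyme of the folate cycle that is low in most adult tissues. It had 2.99, 3.23, 3.79 and 4.05 CPM in WT-Sham, 3.12 and 2.75 CPM in WT-TAC, 3.24, 2.51, 1.99 and 2.72 CPM in HCN4F-Sham, and 5.10, 5.96, 4.63 and 6.43 CPM in HCN4F-TAC. The HCN4F-TAC libraries lay above all others, and of the WT-TAC libraries replicate 2 lay within and replicate 3 below the WT-Sham range. Mthfd2 rose 2.11-fold after TAC in HCN4F hearts (log2 fold change 1.08, standard error 0.16, adjusted p = 0.000391), whereas the WT value was -0.27 (standard error 0.20, adjusted p = 0.451).

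Aldh18a1 (ENSMUSG00000025007, chr19:40550257-40588463) encodes the enzyme that makes the precursor of proline from glutamate. Its level was 9.43, 8.41, 9.48 and 9.64 CPM in WT-Sham, 10.4 and 11.1 CPM in WT-TAC, 8.996, 9.81, 8.21 and 8.12 CPM in HCN4F-Sham, and 12.2, 15.4, 12.1 and 13.4 CPM in HCN4F-TAC. Again the HCN4F-TAC libraries lay above all others, and WT-TAC lay just above WT-Sham. It rose 1.51-fold in HCN4F hearts (log2 fold change 0.60, standard error 0.10, adjusted p = 0.000986), with a WT value of 0.22 (standard error 0.12, adjusted p = 0.290).

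The other 5 genes of this group did not pass in either genotype. Pycr1, which encodes the last enzyme of proline synthesis, had a log2 fold change of 0.32 in HCN4F hearts (standard error 0.19, adjusted p = 0.285). Asns, the asparagine synthetase gene and a textbook ATF4 target, had 0.21 in both genotypes, with standard errors of 0.18 in HCN4F and 0.22 in WT. The serine synthesis genes Phgdh and Psat1 had -0.18 and 0.06 in HCN4F hearts, and Shmt2, the mitochondrial serine hydroxymethyltransferase gene, had -0.02. Asns, Psat1, Phgdh and Pycr1 were counted at only 0.955 to 2.94 CPM in single libraries. Exons of Shmt2 overlap the opposite-strand gene Ndufa4l2, and since the use of strand in counting is not given in the sources used here, its counts are uncertain. The median log2 fold change of the 9 genes was 0.32 in HCN4F and -0.07 in WT hearts.

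**Figure D3:**
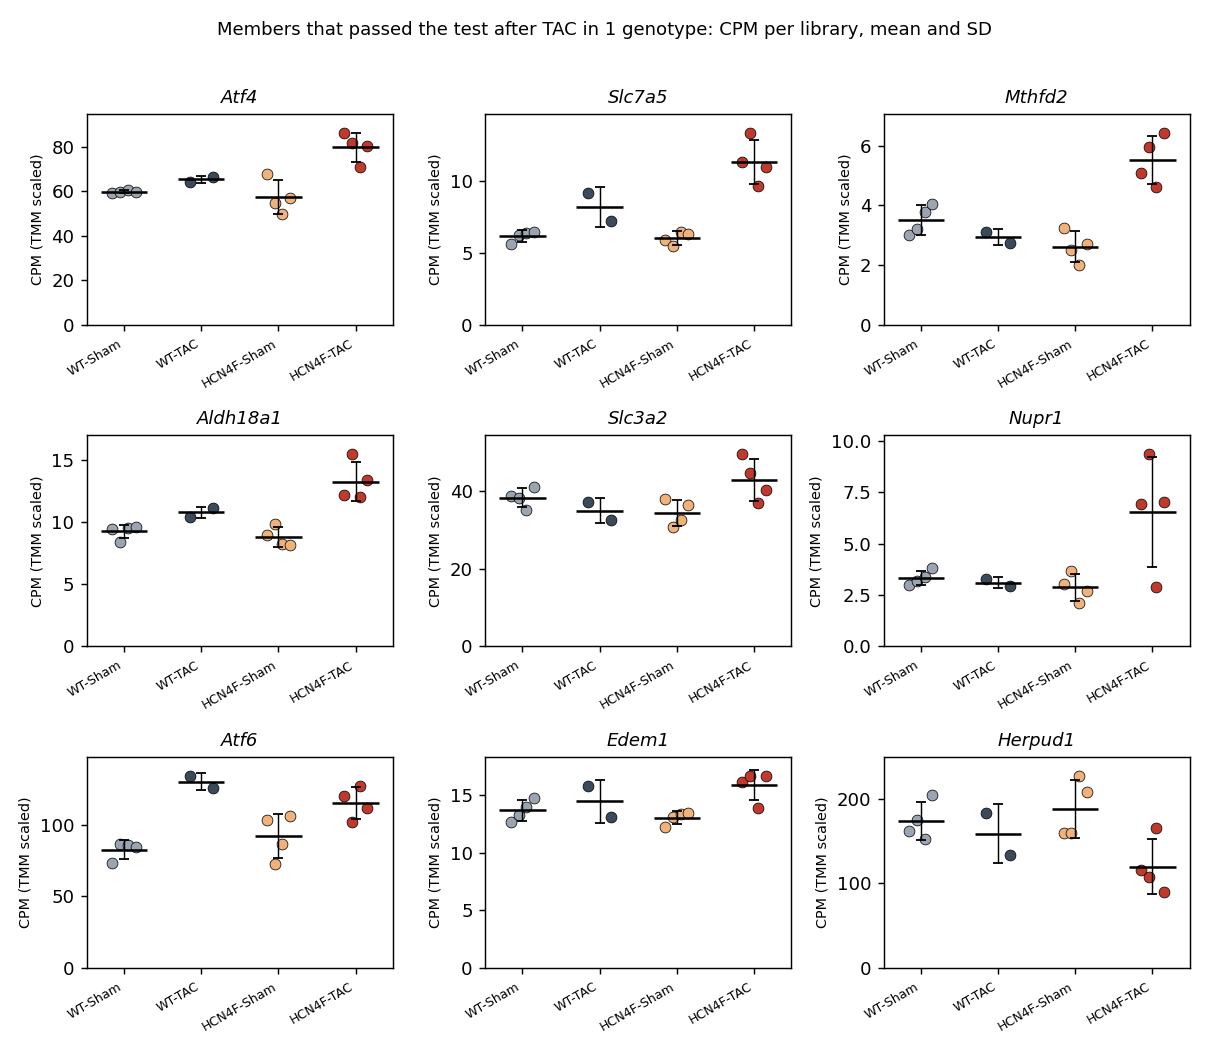
CPM (TMM scaled, y axes from 0) of the 9 members that passed after TAC in one of the genotypes, in each library of the 4 groups; the horizontal line is the group mean and the bar 1 SD. HCN4F-TAC points lie above all other points for Slc7a5, Mthfd2, Aldh18a1 and Atf4, HCN4F-TAC replicate 3 lies among the Sham libraries for Nupr1, and Herpud1 is lower in 3 of the 4 HCN4F-TAC libraries.

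Atf4 (ENSMUSG00000042406, chr15:80255184-80257541) itself encodes the transcription factor at the centre of the integrated stress response. It had 59.4, 59.8, 60.8 and 59.5 CPM in WT-Sham, 64.2 and 66.4 CPM in WT-TAC, 67.7, 54.7, 49.8 and 57.1 CPM in HCN4F-Sham, and 86.1, 81.5, 70.9 and 80.1 CPM in HCN4F-TAC. The HCN4F-TAC libraries were the highest of all, and the WT-Sham libraries differed little among themselves. Atf4 rose 1.39-fold after TAC in HCN4F hearts (log2 fold change 0.47, standard error 0.08, adjusted p = 0.00161), and the WT value was 0.13 (standard error 0.10, adjusted p = 0.498).

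Ddit3 (ENSMUSG00000025408, chr10:127290774-127296288) encodes CHOP, a transcription factor downstream of ATF4 in prolonged stress. It had 15.9, 13.0, 14.7 and 14.7 CPM in WT-Sham, 9.41 and 11.4 CPM in WT-TAC, 10.7, 14.3, 10.9 and 14.7 CPM in HCN4F-Sham, and 17.5, 16.3, 12.9 and 16.6 CPM in HCN4F-TAC. Both WT-TAC libraries lay below all WT-Sham libraries, and 3 of 4 HCN4F-TAC libraries lay above all other libraries. The log2 fold change after TAC was -0.48 in WT (standard error 0.15, adjusted p = 0.0826) and 0.32 in HCN4F hearts (standard error 0.12, adjusted p = 0.0936). Without HCN4F-TAC replicate 3 the HCN4F value was 0.41, with adjusted p = 0.0298, and it passed without a filter (0.0472). The WT fall passed with the WT groups fitted alone in DESeq2 (0.0115) and edgeR (0.0245), and without a filter (0.0477). Exons of Ddit3 overlap those of Mars on the opposite strand, which was expressed at 44.5 CPM, so that some of these reads may belong to either gene.

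Of the sensors, Atf6 (ENSMUSG00000026663, chr1:170704674-170867771), which encodes the ER membrane protein that is cleaved to a transcription factor, had 73.3, 87.1, 86.3 and 85.0 CPM in WT-Sham, 135 and 127 CPM in WT-TAC, 104, 73.1, 86.7 and 106 CPM in HCN4F-Sham, and 121, 102, 128 and 112 CPM in HCN4F-TAC. Both WT-TAC libraries lay far above WT-Sham, whereas HCN4F-TAC replicate 2 lay below HCN4F-Sham replicates 1 and 4. Atf6 rose 1.58-fold after TAC in WT hearts (log2 fold change 0.66, standard error 0.13, adjusted p = 0.0134) and had 0.32 in HCN4F hearts (standard error 0.11, adjusted p = 0.0538). The WT call was lost without WT-TAC replicate 2 (0.61, adjusted p = 0.0839) or replicate 3 (0.70, adjusted p = 0.140). The HCN4F value passed without HCN4F-Sham replicate 1 (adjusted p = 0.0338) or 4 (0.0296), or without HCN4F-TAC replicate 2 (0.0441), and also in DESeq2 on all groups (0.0338) and without a filter (0.0112). The 2 responses differed by -0.33 (standard error 0.17), a difference that did not pass (adjusted p = 0.565).

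Ern1 (ENSMUSG00000020715, chr11:106394650-106487852), the gene of the sensor kinase and RNase IRE1, had 12.8, 11.8, 11.7 and 11.4 CPM in WT-Sham, 16.6 and 13.6 CPM in WT-TAC, 13.9, 13.7, 16.3 and 14.7 CPM in HCN4F-Sham, and 13.3, 12.7, 16.0 and 13.1 CPM in HCN4F-TAC. WT-Sham lay below WT-TAC and below HCN4F-Sham without overlap. The log2 fold change after TAC was 0.34 in WT (standard error 0.12, adjusted p = 0.101, and 0.0444 in edgeR on the WT groups alone) and -0.09 in HCN4F hearts (standard error 0.10, adjusted p = 0.585).

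Eif2ak3 (ENSMUSG00000031668, chr6:70844515-70905245), the gene of the eIF2α kinase PERK, had 8.54, 9.69, 9.60 and 7.97 CPM in WT-Sham, 10.1 and 9.30 CPM in WT-TAC, 8.88, 9.68, 10.01 and 9.84 CPM in HCN4F-Sham, and 9.95, 9.78, 9.32 and 9.97 CPM in HCN4F-TAC. All groups overlapped, and the log2 fold changes after TAC were 0.12 in WT (standard error 0.11) and 0.02 in HCN4F hearts (standard error 0.09). Xbp1 (ENSMUSG00000020484, chr11:5520659-5525893), whose mRNA is spliced by IRE1, had 59.1, 61.7, 59.7 and 62.1 CPM in WT-Sham, 64.2 and 53.5 CPM in WT-TAC, 59.5, 50.1, 53.7 and 50.7 CPM in HCN4F-Sham, and 54.5, 61.7, 56.0 and 61.1 CPM in HCN4F-TAC. Its groups overlapped after TAC, with -0.04 in WT (standard error 0.09) and 0.12 in HCN4F hearts (standard error 0.08). Counts per gene do not separate spliced from unspliced Xbp1. Atf5, a relative of Atf4, had 0.17 in HCN4F hearts (standard error 0.09, adjusted p = 0.216), and its exons overlap the opposite-strand genes Nup62 and Il4i1.

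Nupr1 (ENSMUSG00000030717, chr7:126623249-126630861), the only stress effector that passed in edgeR's test on all groups, encodes a small chromatin protein induced in stressed cells. It had 2.99, 3.19, 3.37 and 3.79 CPM in WT-Sham, 3.29 and 2.92 CPM in WT-TAC, 3.05, 3.65, 2.10 and 2.69 CPM in HCN4F-Sham, and 6.93, 9.35, 2.90 and 7.04 CPM in HCN4F-TAC. HCN4F-TAC replicates 1, 2 and 4 lay above all other libraries, and replicate 3 lay among the Sham libraries. Nupr1 rose 2.30-fold in HCN4F hearts (log2 fold change 1.20, standard error 0.27, adjusted p = 0.00818), with a WT value of -0.11 (standard error 0.33, adjusted p = 0.883). HCN4F-TAC replicate 3 was also the lowest of its group in fibroblast (998 CPM) and atrial (411.7 CPM) markers.

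The other effectors did not pass after TAC in either genotype in edgeR's test on all groups. Ppp1r15a encodes GADD34, which directs the removal of phosphate from eIF2α and so closes the feedback loop. It had log2 fold changes of 0.41 in WT (standard error 0.13, adjusted p = 0.0724) and 0.26 in HCN4F hearts (standard error 0.10, adjusted p = 0.106). Without HCN4F-Sham replicate 1 both passed, with adjusted p = 0.0370 in WT and 0.0204 in HCN4F. They also passed without a filter (0.0123 and 0.0498). The WT value passed in DESeq2 on all groups (0.0386) and, with the WT groups fitted alone, in DESeq2 (0.00841) and edgeR (0.0248). Trib3, the gene of an ATF4-induced pseudokinase that restrains ATF4, had -0.13 in WT (standard error 0.23) and 0.00 in HCN4F hearts (standard error 0.19). Ddit4, which encodes the mTORC1 inhibitor REDD1, spread widely within groups, from 56.7 to 160 CPM in HCN4F-TAC and from 105 to 266 CPM in WT-Sham, and its response was 0.28 in HCN4F hearts with a standard error of 0.42.

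Of the 4 tested degradation genes, Herpud1 and Edem1 passed in HCN4F hearts. Herpud1 (ENSMUSG00000031770, chr8:94386438-94395377) encodes an ER membrane protein of the ubiquitin ligase complex and holds both ERSE-II and CARE in the sequence printed earlier. It had 162, 175, 152 and 205 CPM in WT-Sham, 184 and 134 CPM in WT-TAC, 160, 160, 228 and 208 CPM in HCN4F-Sham, and 116, 108, 166 and 89.3 CPM in HCN4F-TAC. HCN4F-TAC replicate 3 lay within the HCN4F-Sham range and the other HCN4F-TAC libraries lay below every other library. Herpud1 fell by 0.65 on the log2 scale after TAC in HCN4F hearts (standard error 0.18, adjusted p = 0.0293), with a WT value of -0.13 (standard error 0.22, adjusted p = 0.782). The call was lost without HCN4F-Sham replicate 3 (adjusted p = 0.0708) or 4 (0.0721), or without HCN4F-TAC replicate 1 (0.0694), 2 (0.0873) or 4 (0.0737). It was also lost with the replicate block (0.0611) and without a filter (0.111).

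Edem1 (ENSMUSG00000030104, chr6:108828641-108859356), whose product takes misfolded glycoproteins to degradation, had 12.6, 13.3, 13.96 and 14.8 CPM in WT-Sham, 15.8 and 13.1 CPM in WT-TAC, 12.2, 13.1, 13.4 and 13.5 CPM in HCN4F-Sham, and 16.2, 16.7, 13.9 and 16.7 CPM in HCN4F-TAC. The HCN4F-TAC libraries lay above all HCN4F-Sham libraries, replicate 3 only just. The rise was 0.28 (standard error 0.09, 1.22-fold, adjusted p = 0.0427). It stayed called without HCN4F-TAC replicate 3 and without either WT-TAC library, and lost the call without any other single library, with adjusted p up to 0.119 (without HCN4F-TAC replicate 2). It was also lost with the HCN4F groups fitted alone (0.0636 in DESeq2 and 0.0938 in edgeR) and without a filter (0.0738). Syvn1 and Sel1l, the genes of the HRD1 ligase and its partner, did not pass in edgeR's test on all groups. In WT hearts Sel1l had 0.33 (standard error 0.11, adjusted p = 0.101), which passed without HCN4F-Sham replicate 3 (0.0475), without a filter (0.0434), and with the WT groups fitted alone in DESeq2 (0.00892) and edgeR (0.0198). Exons of Syvn1 overlap Mrpl49 on the opposite strand.

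No chaperone or folding enzyme passed in either genotype (0 of 12 in edgeR's quasi-likelihood test, 2 in each genotype at an unadjusted p under 0.05). DESeq2 on all groups called 1 in WT, Hsp90b1 (8.66% of all genes), and 0 in HCN4F hearts. Fitted on the WT groups alone, DESeq2 and edgeR each called 2 in WT, Canx (adjusted p = 0.0362 and 0.0433) and Hsp90b1 (0.00257 and 0.0141). Hspa5 (ENSMUSG00000026864, chr2:34771970-34777547), the gene of BiP, which binds unfolded proteins and holds the sensors inactive, had 446, 482, 526 and 538 CPM in WT-Sham, 620 and 541 CPM in WT-TAC, 575, 364, 508 and 350 CPM in HCN4F-Sham, and 433, 495, 488 and 448 CPM in HCN4F-TAC. Both WT-TAC libraries lay above WT-Sham, replicate 3 only just, and HCN4F-TAC lay within the wide range of HCN4F-Sham. The log2 fold changes were 0.22 in WT (standard error 0.16, adjusted p = 0.439) and 0.05 in HCN4F hearts (standard error 0.13, adjusted p = 0.838).

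Hsp90b1, which encodes the ER chaperone GRP94, had the smallest p of this group. It lay at 275.5 to 310.5 CPM in WT-Sham and at 343 and 371 CPM in WT-TAC, against 278 to 355 CPM in HCN4F-Sham and 295 to 345 CPM in HCN4F-TAC. The WT value was 0.31 (standard error 0.10, adjusted p = 0.0789), and it passed without HCN4F-Sham replicate 1 (0.0436) or 2 (0.0455), or without a filter (0.0489). The HCN4F value was 0.01 (standard error 0.08). Of the lectin chaperone genes, Canx (calnexin) had 0.24 in WT (adjusted p = 0.168) and -0.09 in HCN4F hearts, and Calr had 0.06 and 0.01. Of the disulfide isomerase genes, P4hb had 0.19 and Pdia4 0.19 in HCN4F hearts (adjusted p = 0.138 and 0.158), Pdia3 had 0.10 and Pdia6 -0.04. Sdf2l1, whose product works with ER chaperones, had -0.25 in WT and -0.03 in HCN4F hearts and lay between 8.39 and 16.0 CPM in all libraries. Over all libraries Calr lay between 321 and 404 CPM, Canx between 193 and 254, P4hb between 168 and 253, Pdia3 between 119 and 151, Pdia6 between 94.6 and 119, Hyou1 between 49.8 and 72.4 and Pdia4 between 32.01 and 43.3 CPM. Over the 12 genes the log2 fold changes ran from -0.25 to 0.31 in WT and from -0.09 to 0.19 in HCN4F hearts. The 7 tested members with an ERSE, 6 of which belong to this group, had a median of 0.09 in WT and 0.01 in HCN4F hearts. None passed in edgeR's test on all groups, although the WT calls of Hsp90b1 and Canx in the other fits belong to this set. For the 6 members with a CARE the median was -0.094 in WT and 0.105 in HCN4F hearts. In edgeR's test on all groups, 1 of these rose and 1 fell in HCN4F hearts (7.2% and 6.41% of all genes).

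The second question was whether the genotypes differed without pressure overload. Between Sham hearts, 0 of 38 members passed in edgeR's quasi-likelihood test on all groups, against 0.471% of all genes. At an unadjusted p under 0.05 there were 9 (15.2% of all genes), and none passed with the fold condition (0.209% of all genes). DESeq2 called 3 when fitted on all groups (2.24% of all genes) and 2 when fitted on the Sham groups alone (2.88%), and edgeR on the Sham groups alone called 1, Chac1 (0.736%). In these 3 fits Chac1 also met the fold condition. The 9 members at an unadjusted p under 0.05 were Chac1, Sesn2, Creld2, Manf, Ddit4, Mthfd2, Ern1, Ppp1r15a and Xbp1. Sesn2 (ENSMUSG00000028893, chr4:132492032-132510501) encodes sestrin 2, a stress-induced sensor of leucine that restrains mTORC1. It had 5.04 to 6.62 CPM in HCN4F-Sham and 3.44 to 4.43 CPM in WT-Sham without overlap, with a log2 difference of 0.51 (standard error 0.12, adjusted p = 0.0597). It passed without HCN4F-Sham replicate 1, its highest library (0.42, adjusted p = 0.0498), and in DESeq2 on all groups (adjusted p = 0.0142) and on the Sham groups alone (0.0342). Its WT-TAC libraries (4.97 and 5.35 CPM) and HCN4F-TAC libraries (5.66 to 6.18 CPM) also lay above all WT-Sham libraries, and these comparisons share the WT-Sham libraries.

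Chac1 (ENSMUSG00000027313, chr2:119351229-119354381) encodes an enzyme that degrades glutathione and is a target of ATF4. It had 8.95 to 14.3 CPM in HCN4F-Sham and 2.68 to 6.03 CPM in WT-Sham. The groups did not overlap, and the mean was 2.33-fold higher in HCN4F-Sham (log2 difference 1.22, standard error 0.32, adjusted p = 0.112). It passed without HCN4F-TAC replicate 1 (adjusted p = 0.0407), a library that is not in the comparison but enters the estimate of the spread, and in DESeq2 on all groups (adjusted p = 0.0300). With the Sham groups fitted alone it passed in DESeq2 (1.22, adjusted p = 1.46e-05) and edgeR (1.22, adjusted p = 0.0394). After TAC it was 11.2 and 7.13 CPM in WT and 3.52 to 10.5 CPM in HCN4F hearts, with log2 fold changes of 0.91 in WT (standard error 0.38, adjusted p = 0.181) and -0.51 in HCN4F (standard error 0.31, adjusted p = 0.296). The WT value passed in DESeq2 on the WT groups alone (adjusted p = 0.00396).

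**Figure D4:**
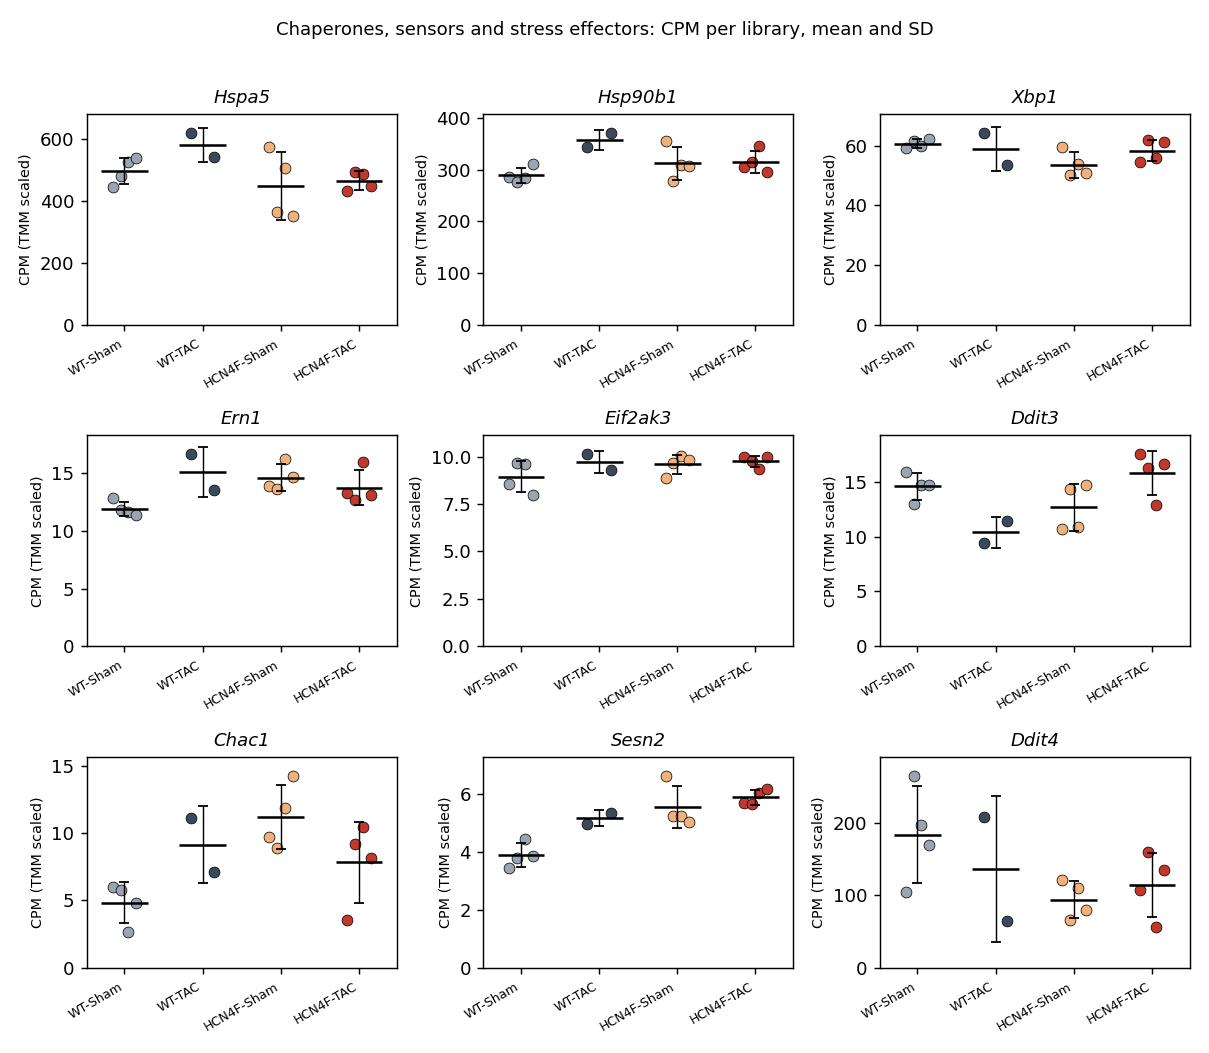
CPM (TMM scaled, y axes from 0) of 9 further members in each library of the 4 groups, with the group mean as a line and 1 SD as a bar. Chac1 and Sesn2 are higher in all HCN4F-Sham than in all WT-Sham libraries, Ddit3 is lowest in WT-TAC, and the groups overlap for Eif2ak3 and Xbp1.

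Creld2 and Manf encode soluble factors of the ER that are induced in ER stress, and both had lower means in HCN4F-Sham than in WT-Sham. Creld2 was 12.3 to 15.7 CPM there and 16.2 to 20.4 CPM in WT-Sham without overlap (log2 difference -0.35, standard error 0.10, adjusted p = 0.123), and Manf was 31.4 to 54.5 against 46.0 to 56.4 CPM (-0.32, standard error 0.13, adjusted p = 0.257). Without HCN4F-Sham replicate 1 both passed, Creld2 at -0.42 (adjusted p = 0.0346) and Manf at -0.48 (adjusted p = 0.0202). Exons of Manf overlap Dcaf1 and Rbm15b. In all, 4 of 38 members (10.5%) did not overlap between Sham groups, against 8.56% of all genes. Ddit4 had the largest negative difference, -0.97 (standard error 0.42, adjusted p = 0.310), with overlapping groups. Mthfd2 had -0.43 (standard error 0.16, adjusted p = 0.228), also with overlap, and its HCN4F-Sham libraries are the reference for its response in HCN4F hearts and enter the interaction. Ern1 was higher in all HCN4F-Sham libraries (0.30, standard error 0.10, adjusted p = 0.161). With overlap, Ppp1r15a had 0.27 (standard error 0.10, adjusted p = 0.228) and Xbp1 -0.18 (standard error 0.08, adjusted p = 0.273).

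The third question was whether the genotypes differed after TAC. Again 0 of 38 members passed in edgeR's quasi-likelihood test on all groups, against 0.111% of all genes, none with the fold condition (0.0719%), 8 at an unadjusted p under 0.05 (12.5%) and 2 in DESeq2 on all groups, Mthfd2 and Ddit3 (1.63% of all genes). Both also passed in edgeR without a filter (adjusted p = 0.00909 and 0.0202, with 0.49% of all genes) and in DESeq2 on the TAC groups alone (1.18%). With the TAC groups fitted alone, edgeR called 0 of 38 members (0.0206% of all genes). Mthfd2 had a log2 difference of 0.92 (standard error 0.20, adjusted p = 0.0904) and was higher in 4 of 4 HCN4F-TAC libraries than in both WT-TAC libraries. Ddit3 had 0.60 (standard error 0.15, adjusted p = 0.127), also without overlap. Nupr1 had 1.08 (standard error 0.33, adjusted p = 0.195), with HCN4F-TAC replicate 3 just below both WT-TAC libraries, and Slc7a5 had 0.47 (standard error 0.14, adjusted p = 0.177). These 4 genes passed when HCN4F-TAC replicate 3 was left out, at 1.00 for Mthfd2 (adjusted p = 0.0130), 0.68 for Ddit3 (0.0195), 1.33 for Nupr1 (0.00232) and 0.54 for Slc7a5 (0.0418), as did 2.97% of all genes. Of the 38 members, 12 (31.6%) did not overlap between the genotypes after TAC, against 22.2% of all genes. They were 8 with higher and 4 with lower values in HCN4F-TAC. All 4 lower ones were chaperone genes, Hspa5 at -0.32, Hyou1 at -0.26, Canx at -0.17 and Pdia6 at -0.12 (adjusted p = 0.354 to 0.669). The shares of all genes by direction are not given here, and the split by direction or role was not tested.

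Whether the TAC response itself differed between the genotypes was asked with the interaction of genotype and surgery, for which 0 of 38 members and 0 of 15292 genes passed in edgeR's quasi-likelihood test. At an unadjusted p under 0.05 there were 12 members (31.6%, against 9.27% of all genes), and DESeq2 on all groups called 1, Mthfd2 (0.246% of all genes). The response of Mthfd2 was higher in HCN4F by 1.35 (standard error 0.26, adjusted p = 0.168), that of Ddit3 by 0.80 (standard error 0.20, adjusted p = 0.362) and that of Nupr1 by 1.31 (standard error 0.43, adjusted p = 0.448). Without HCN4F-TAC replicate 3 the 3 genes passed, with adjusted p = 0.0273, 0.0454 and 0.0204 (0.51% of all genes). The response of Chac1 differed by -1.42 (standard error 0.49, adjusted p = 0.466). For the 8 members called in HCN4F but not in WT hearts, edgeR on all groups, with the filter on low counts, called no difference between the responses. Without that filter it called Mthfd2 (1.33, adjusted p = 0.00751), which is among these 8. It also called Ddit3 (0.79, adjusted p = 0.0358), which is not, with 0.057% of all genes called. The 15 members (39.5%) that did not overlap between WT-TAC and WT-Sham, against 39.2% of all genes, and the 7 (18.4%) that did not overlap between the HCN4F groups, against 15.1%, were near these background shares.

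Other genes of the same pathways were taken from 6 lists, of which 107 genes were tested. After TAC in HCN4F hearts 18 of them passed (16.8%, against 13.6% of all genes). Among 21 tested ATF4 target and amino acid genes, 2 rose and 1 fell (14.3%, against 13.6% of all genes). Slc1a4, a neutral amino acid transporter gene, rose by 1.04 (standard error 0.17, adjusted p = 0.00104) and Slc38a2, which encodes the transporter SNAT2, by 0.89 (standard error 0.20, adjusted p = 0.0118), while Gpt2, encoding mitochondrial alanine transaminase, fell by 0.63 (standard error 0.12, adjusted p = 0.00279). Of 18 cytosolic aminoacyl-tRNA synthetase genes, 3 rose (16.7%, against 7.2% of all genes), Aars by 0.39, Nars by 0.29 and Iars by 0.23, and the median of the list was 0.12.

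Of 22 other sensors, proteases and factors, 3 rose (13.6%, against 7.2% of all genes) and none fell. Atf3, a stress-induced partner of ATF4, rose by 2.03 (standard error 0.51, adjusted p = 0.0221) with overlapping groups. Trib1 rose by 0.61 (adjusted p = 0.00590) and Creb3l2, which encodes an ER-bound transcription factor related to ATF6, by 0.61 (adjusted p = 0.00187). Of 22 other ER folding genes, 4 passed (18.2%, against 13.6% of all genes). Of these, 3 rose, Ero1l by 0.47, Txndc5 by 0.31 and Sec61a1 by 0.28, and 1 fell, the BiP exchange factor gene Sil1 by 0.33. Of 11 mitochondrial chaperone and protease genes 4 passed (36.4%, against 13.6% of all genes). They were 2 higher and 2 lower (18.2% each, against 7.2% and 6.41% of all genes). Lonp1 and Afg3l2 rose by 0.23 each, and Clpp and Oma1 fell by 0.35 and 0.21.

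In WT hearts 3 genes of the same lists passed (2.8%, against 4.54% of all genes). These were Edem3, a degradation gene related to Edem1 (0.50, standard error 0.12, adjusted p = 0.0308), Uggt1, the glycoprotein folding sensor gene (0.34, standard error 0.09, adjusted p = 0.0384), and Clpp (-0.40, standard error 0.11, adjusted p = 0.0409). Medians of the 6 lists lay between -0.08 and 0.12 in HCN4F and between -0.08 and 0.02 in WT hearts.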

How the data were processed

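RNA of the left ventricle was sequenced after poly(A) selection in 14 libraries. The authors deposited a table of unnormalized read counts, 1 value per gene and library, on mouse build GRCm38 per the submitters' processing notes. The aligner, the counting program and the use of strand are not given in the sources used here. Groups and replicate numbers were taken from the sample labels, and 2 further columns of the table, named as WT-TAC but matching no sample labelled here, were not used. Counts were scaled with TMM in edgeR 4.0.16 (R 4.3.3), and CPM are on this scale, without a pseudocount. Genes were kept with filterByExpr by group (15292 of 49315), the 4 groups entered a common fit with their means as terms, and comparisons used the robust quasi-likelihood test, with p adjusted by Benjamini-Hochberg across the tested genes. A gene passed at an adjusted p under 0.05. Log2 fold changes carry the standard error of this model. The steps were tested on simulated data.

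Depth was 22309914 to 35210939 counts per library, and 3 counts correspond to 0.0859 to 0.137 CPM, a limit that covers counting error only. The 39 members and all lists were chosen with earlier results of these data known. Values in every library are given for members that passed in any comparison and for Hspa5, Xbp1, Atf4, Ddit3, Atf6, Ern1 and Eif2ak3. Other members are given by their fold changes or ranges, and of the other pathway genes those that passed are named, at most 3 per list and direction. The pathway result of 1 gene that passed is left out here. Gene positions, exon lengths and overlaps came from GENCODE mouse release 21 on GRCm38. Alternatives were DESeq2 1.42.0 on all or on the compared groups, edgeR fitted to these groups alone, size factors from DESeq2, scaling without mitochondrial transcripts, no filter, a filter at mean CPM 1, non-robust estimation, the replicate number as a block, and leaving out each library. Python 3.11.15 and matplotlib 3.10.9 drew the figures.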

Additional observations from a re-analysis of the deposited data

Results flagged for a closer look

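Over 114 groups of 4 libraries (38 members in 3 groups), 4 values, in 3 libraries, stood apart from the other 3 of their group by Dixon's test, where chance gives about 1 group in 20. Atf6 had 73.3 CPM in WT-Sham replicate 1, below the other WT-Sham libraries (85.0 to 87.1 CPM). Ern1 had 16.0 CPM in HCN4F-TAC replicate 3, above the others of its group (12.7 to 13.3 CPM). HCN4F-Sham replicate 1 was high for Sesn2, with 6.62 CPM (others 5.04 to 5.25), and for Shmt2, with 44.3 CPM (others 38.4 to 38.8). No cause was tested for these values.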

How the results depend on the processing

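Of 9 calls named in the text, 178 of 207 alternative values kept the call, 29 lost it and none changed sign. Atf4, Nupr1, Mthfd2, Aldh18a1 and Slc7a5 stayed called in HCN4F hearts under all 23 alternatives. Of 1260 alternative values for 56 further results chosen from those that did not pass, 57 gained a call and 1 changed sign, Ern1 in HCN4F against WT after TAC (0.0176 without WT-TAC replicate 2, and down to -0.2724 without replicate 3). Over all members, the scaling alternatives turned the sign of Trib3 in HCN4F hearts, Eif2ak3 between genotypes after TAC and Syvn1 in the interaction, whose values under TMM lay at most 0.012 from 0 on the log2 scale.

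The number of members called after TAC in WT hearts was 1, and 3 in DESeq2 on all groups, 7 in DESeq2 and 7 in edgeR on the compared groups, 5 without a filter and 0 to 3 when single libraries were left out. In HCN4F hearts it was 8, and 5 to 9 without single libraries (5 without HCN4F-Sham replicate 3 or HCN4F-TAC replicate 1), with 1 to 2 past the study's fold threshold. Between Sham hearts it was 0, and 3 and 2 in DESeq2 on all and on the compared groups, 1 in edgeR on the compared groups and 0 to 3 without single libraries. Past the fold threshold these counts were 1, 1 and 1, and 0 to 1 without single libraries. After TAC it was 0, and 2 in DESeq2 on all groups, 2 in DESeq2 and 0 in edgeR on the compared groups, and 2 without a filter. It was 0 to 4 without single libraries (4 without HCN4F-TAC replicate 3), with 0 to 1 past the fold threshold. For the interaction it was 0, and 1 in DESeq2 on all groups, 2 without a filter and 0 to 3 without single libraries. The cause of these differences was not tested.

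Same-numbered libraries of different groups did not deviate together (correlation -0.12 to 0.159 over 18 pairs, above 0.1 in 2), so the numbers were not taken as pairs. With the replicate block, 1 member passed after TAC in WT, 7 passed in HCN4F hearts, without Herpud1 (adjusted p = 0.0611), and 0 in the other comparisons. Where 1 WT-TAC library was left out, the other was assumed to vary like the other groups. WT-TAC with 2 libraries limits the WT and TAC genotype comparisons.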
